A study of Mus musculus with 36 samples.

Results

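The genes examined here encode the collagen chains, the polypeptides that wind around each other in threes to form the collagen molecules of the extracellular matrix. They were chosen by symbol, as the protein-coding genes of the table named Col, a type number, the letter a and a chain number, which gave 44 of the 55487 genes of the table. RNA-seq counts were measured in mouse embryonic fibroblasts (MEFs), primary cells grown out of mid-gestation embryos, after 5 h with vehicle or with 1 μM dexamethasone (Dex), a synthetic ligand of the glucocorticoid receptor (GR). The purpose of the study was to separate the contributions of the dimer interfaces of the GR. The comparison asked here is how the collagen genes differed between receptor variants, with Dex and without added Dex. The 36 libraries formed 12 groups of 3 in 2 runs. Run 1 held vehicle and Dex libraries of GRwt/wt (replicates 1 to 3, with an unmutated receptor), of GRD/D, with a point mutation in the dimer interface of the DNA-binding domain, of GRD+L/D+L, with that mutation and a point mutation in the ligand-binding domain, and of GRko/ko, without a functional receptor. Run 2 held GRL/L, with the ligand-binding domain mutation alone, and GRwt/wt replicates 4 to 6. All alleles were homozygous and present in every cell from conception. All libraries are labelled FVB/NJ, but per the study's methods the GRko/ko embryos had parents of another strain. Per the methods, each genotype came from 3 cultures of different embryos, so that in vehicle libraries the genotype cannot be told apart from the origin of those cultures.

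Collagens fall into classes by what their molecules build. Types I, III and V and their relatives assemble into banded fibrils, in which type V and type XI chains sit at the core and set fibril number and diameter, while FACIT collagens (fibril-associated collagens with interrupted helices) coat the surface. Type IV forms the sheet of basement membranes, type VI beaded filaments around cells, types VIII and X hexagonal nets, type VII the anchoring fibrils under epithelia, and other chains are transmembrane proteins or multiplexins, which carry sugar chains and release fragments such as endostatin. Glucocorticoids have long been known to restrain collagen output of skin and fibroblasts, mostly over longer exposures than used here.

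The regulatory sequence in front of the chains that responded is shown first, because the most responsive gene and the gene pairs that moved together differ in how their starts are arranged. Promoters of RefSeq (GRCm38.p6, 250 bases before to 50 after the start, 5′ to 3′ on the gene's strand) were matched for 35 of the 44 genes. Capitals mark the CCAAT box (CCAAT), the TATA box (TATAAA), the AP-1 site (TGANTCA) and the GC box (GGGCGG) on either strand. Col11a1 (chr3:114030290-114030589, plus strand) stands alone. Col4a1 (chr8:11312777-11313076, minus strand) and Col4a2 (chr8:11312555-11312854, plus strand) lie head to head, the annotated genes share 22 bases at their starts, and the windows share 78 bases. Col6a1 (chr10:76725995-76726294, minus strand) and Col6a2 (chr10:76623581-76623880, minus strand) are neighbours with separate promoters. Col8a1 (chr16:57754688-57754987, minus strand) is shown as the chain lowered by Dex in most genotypes.

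Col11a1: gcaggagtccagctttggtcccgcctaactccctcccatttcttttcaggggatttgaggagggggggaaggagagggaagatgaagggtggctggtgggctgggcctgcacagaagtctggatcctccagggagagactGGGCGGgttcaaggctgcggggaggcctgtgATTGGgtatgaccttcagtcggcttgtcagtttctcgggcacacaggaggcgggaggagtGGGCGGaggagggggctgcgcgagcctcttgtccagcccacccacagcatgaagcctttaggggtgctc
Col4a1: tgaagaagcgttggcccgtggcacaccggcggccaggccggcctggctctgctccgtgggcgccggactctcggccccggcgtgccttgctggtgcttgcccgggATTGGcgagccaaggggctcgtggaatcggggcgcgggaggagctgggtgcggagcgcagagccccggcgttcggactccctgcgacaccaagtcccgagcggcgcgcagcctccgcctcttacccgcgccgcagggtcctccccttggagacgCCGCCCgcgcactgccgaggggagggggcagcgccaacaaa
Col4a2: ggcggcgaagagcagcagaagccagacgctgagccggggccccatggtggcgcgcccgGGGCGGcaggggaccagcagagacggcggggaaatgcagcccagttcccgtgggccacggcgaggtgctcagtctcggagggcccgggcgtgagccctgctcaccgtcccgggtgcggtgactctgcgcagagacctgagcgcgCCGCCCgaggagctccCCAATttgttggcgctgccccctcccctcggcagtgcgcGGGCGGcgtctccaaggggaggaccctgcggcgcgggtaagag
Col6a1: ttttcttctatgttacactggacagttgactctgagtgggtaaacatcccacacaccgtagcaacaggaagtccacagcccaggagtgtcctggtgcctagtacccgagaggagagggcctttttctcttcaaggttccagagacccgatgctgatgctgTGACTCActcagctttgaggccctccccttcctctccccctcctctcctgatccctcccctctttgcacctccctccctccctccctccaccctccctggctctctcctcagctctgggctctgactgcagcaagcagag
Col6a2: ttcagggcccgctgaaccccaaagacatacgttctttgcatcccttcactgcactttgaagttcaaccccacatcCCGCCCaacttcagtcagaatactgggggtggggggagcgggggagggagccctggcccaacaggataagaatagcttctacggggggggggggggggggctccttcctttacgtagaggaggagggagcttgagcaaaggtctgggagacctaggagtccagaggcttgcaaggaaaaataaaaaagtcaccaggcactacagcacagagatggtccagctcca
Col8a1: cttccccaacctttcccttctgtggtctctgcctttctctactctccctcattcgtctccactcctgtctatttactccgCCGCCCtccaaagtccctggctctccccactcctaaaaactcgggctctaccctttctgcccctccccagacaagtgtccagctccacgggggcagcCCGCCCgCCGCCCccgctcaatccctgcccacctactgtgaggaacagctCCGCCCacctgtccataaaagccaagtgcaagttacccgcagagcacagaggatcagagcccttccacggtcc

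The full glucocorticoid response element, an inverted repeat with a spacer, was in 0 of the 38 windows of the 35 matched members, of which Col6a2, Col9a1 and Col18a1 had 2 each, and in 0.00913% of all 32851 windows of the same length. Its core TGTTCT, which lies within the full element, was in 2 of these 38 windows, 1 each of Col9a1 and Col20a1, and in 19.0% of all windows. GGGCGG was in 23 of the 38 windows against 35.7% of all windows, CCAAT in 13 against 37.4%, TATAAA in 5 against 13.6%, and TGANTCA in 1, that of Col6a1, against 7.81%. Both strands were searched, and a match of letters is a description and not a site.

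The totals of the 36 libraries ran from 15280166 to 28662608 counts, with 15280166 to 19102035 in run 1 and 21532686 to 28662608 in run 2. Nr3c1, the gene of the GR, lay at 15.9 to 20.4 CPM, the normalised read count of edgeR scaled to library size by TMM, in GRko/ko and at 47.8 to 104.6 CPM in all other groups. The fibroblast markers, all 10 of which were expressed, summed to 24651 to 27173 CPM in GRwt/wt vehicle of run 1 and to 13068 to 14444 CPM in that of run 2. Several libraries stood apart from their group in genes that touch the collagens. GRko/ko vehicle replicate 3 had cartilage markers of 73.3 CPM against 34.5 and 36.8 CPM in the other two, GRwt/wt vehicle replicate 6 had epithelial markers of 51.5 CPM against 5.43 and 5.87 CPM, GRD/D vehicle replicate 2 had the lowest fibroblast markers of run 1 at 18945 CPM, and GRwt/wt Dex replicate 4 was low in Col12a1 and Col6a3. Calls that rest on these libraries are given with and without them.

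Collagen transcripts made up 2.75% to 5.05% of all counts, and 10 genes supplied 90.4% to 94.0% of them. A mean of at least 10000 counts per library was reached by 11 members, at least 100 by 28, and fewer than 10 by Col6a4 and Col13a1, which did not pass the filter on low counts, so that 42 of the 44 members were tested. Per kilobase of annotated exon, vehicle GRwt/wt cells of run 1 held the type I chains highest, with Col1a1 at 1603 ± 106 and Col1a2 at 624 ± 21.8 CPM per kb (SD, n = 3). They were followed by Col5a1 at 481 ± 20.2, Col5a2 at 463 ± 1.34, Col4a1 at 363 ± 9.96 and Col4a2 at 317 ± 10.9 CPM per kb. Col5a1 and Col5a2 differed by less than their SD, whereas the steps from Col1a1 to Col1a2 and from Col5a2 to Col4a1 exceeded theirs. The order was not the same in both runs. In GRwt/wt of run 2, Col3a1 at 436 ± 11.8 and Col6a1 at 383 ± 7.78 CPM per kb stood right after the type I chains, whereas in run 1 they stood at 108 ± 7.19 and 242 ± 8.52 CPM per kb. Type I collagen contains 2 chains of Col1a1 for each chain of Col1a2, and the ratio of the levels per length was 2.57 ± 0.111 in GRwt/wt vehicle of run 1 and 1.84 ± 0.210 in that of run 2. The length is that of all annotated exons of a gene, 6563 bases for Col1a1 and 12426 for Col1a2, whichever transcripts the cells used. In GRwt/wt vehicle replicate 1 the counts were 152741 and 114774. The ratio and the order of chains per kilobase thus depend on the length used, and the ratio is no measure of the chain ratio in the molecule.

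**Figure D1:**
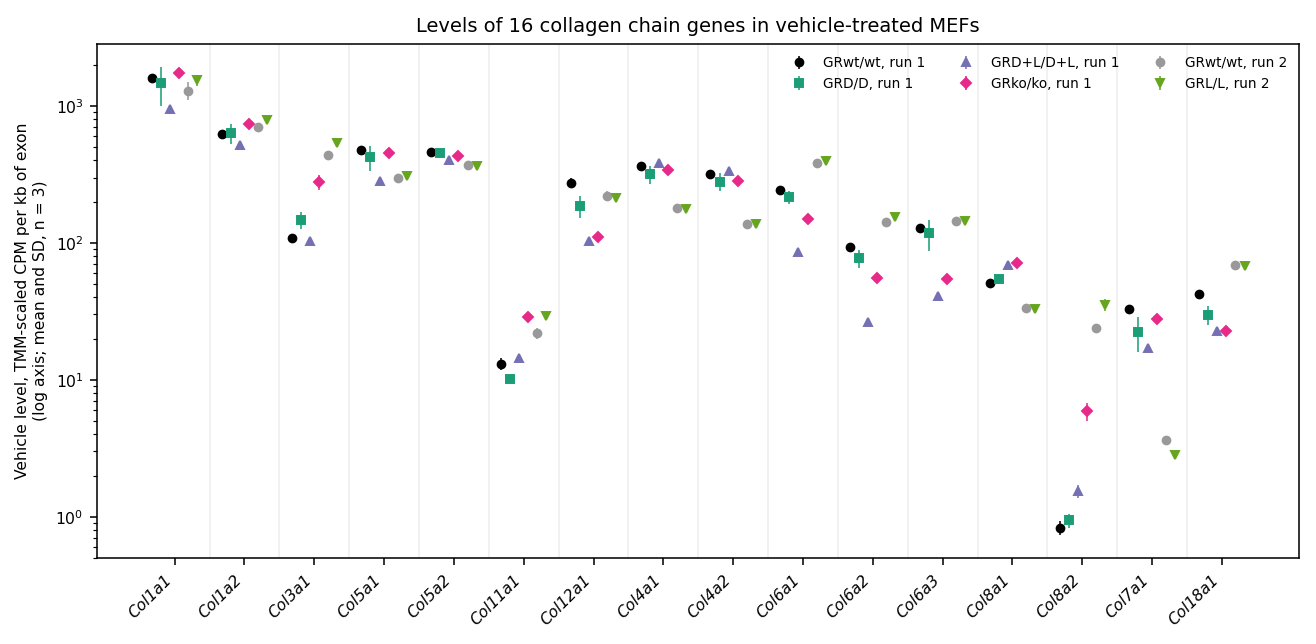
Levels of 16 collagen chain genes in vehicle libraries, in TMM-scaled CPM per kb of exon on a log axis. Markers are group means of 3 libraries and lines their SD, with the genotypes of run 1 and run 2 side by side. The type I chains were highest in every group, the type VI chains and Col12a1 were lowest in GRD+L/D+L or GRko/ko, and Col8a2 and Col7a1 differed most between the runs.

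In response to Dex, the collagen genes did not move as 1 block. In GRwt/wt of run 1, 8 of the 44 members were raised and 2 lowered at an adjusted p of at most 0.05 (edgeR), against 7.74% of all tested genes raised, 6.20% lowered and 13.9% called in all. In GRwt/wt of run 2, 6 were raised and 11 lowered, against 14.9% of all tested genes raised, 16.7% lowered and 31.6% called in all. GRL/L had 7 raised and 7 lowered, against 8.79% of all tested genes raised, 10.4% lowered and 19.1% called in all. GRD/D had 6 raised and 1 lowered, against 5.63% of all tested genes raised, 6.24% lowered and 11.9% called in all, and GRD+L/D+L 1 raised and 1 lowered, against 3.08% of all tested genes raised, 1.92% lowered and 5.00% called in all. GRko/ko had 0 raised and 0 lowered, as did all genes (0.00%). There, 12 members had an unadjusted p under 0.05 by edgeR, and DESeq2 also called 0 members. The median change of the 42 tested members was 0.05 on the log2 scale in run 1 and -0.02 in run 2, beside medians over all genes of -0.0018 and -0.01. Several of these counts turned on single libraries. The 10 calls of GRwt/wt in run 1 became 5 without Dex replicate 3, the 7 of GRD/D became 4 without vehicle replicate 2 or Dex replicate 3 and 16 without vehicle replicate 3, the 14 of GRL/L became 9 without vehicle or Dex replicate 2, the 2 of GRD+L/D+L became 1 without any of 5 of its 6 libraries, and the 0 of GRko/ko became 2 or 3 without vehicle replicate 1 or 2.

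**Figure D2:**
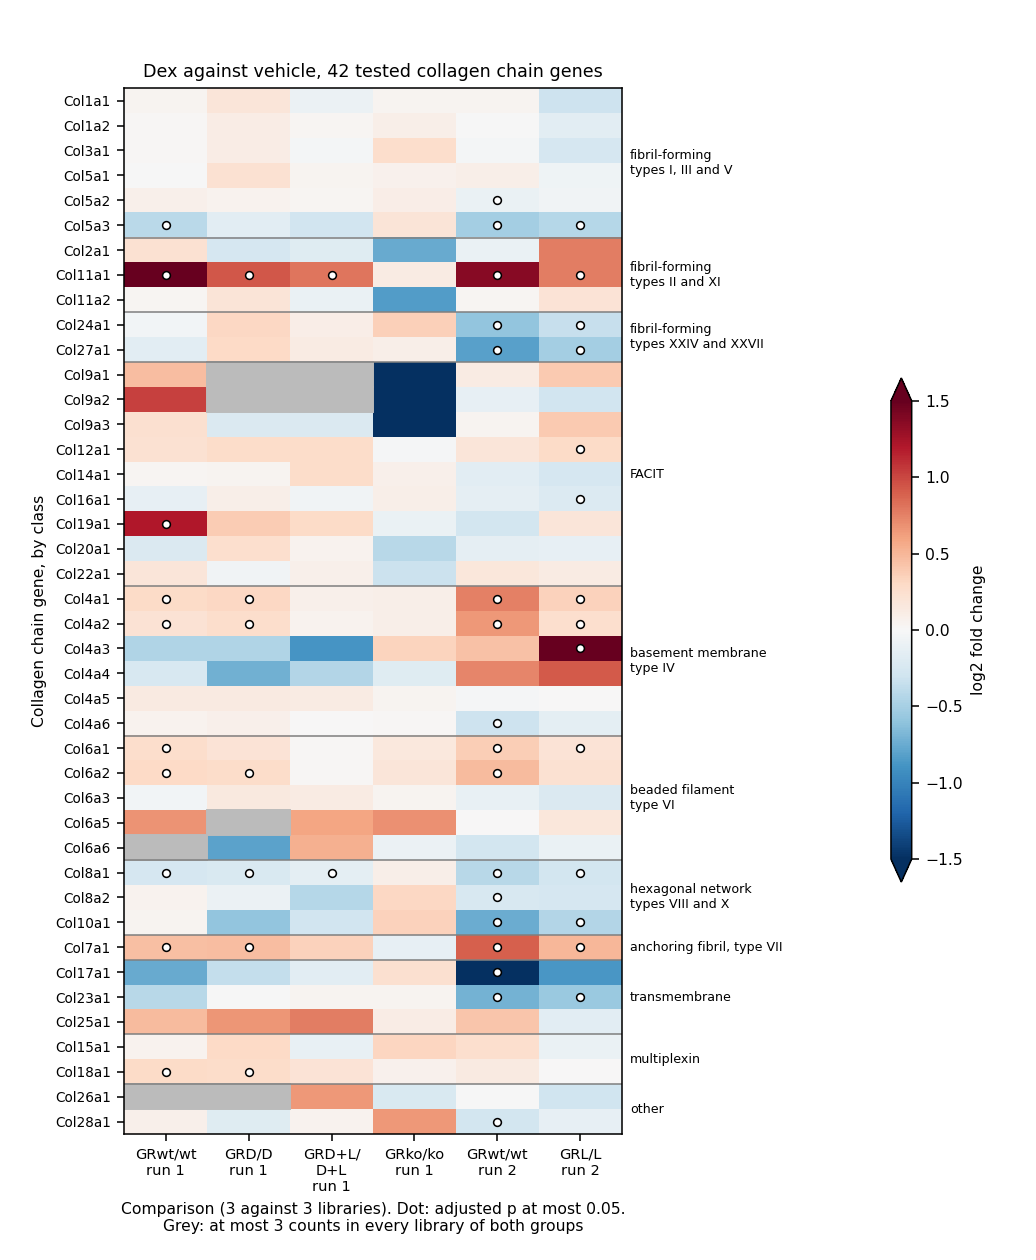
Log2 fold change of Dex against vehicle for the 42 tested collagen chain genes (rows, by class) in the 6 combinations of genotype and run (columns), each from 3 against 3 libraries. Dots mark an adjusted p of at most 0.05 and grey cells have at most 3 counts in every library of both groups. Col11a1 was raised in all groups with a receptor, Col8a1 was lowered in the same groups, and GRko/ko has no dots.

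Dex left no called change in the chains that make up most of the interstitial fibril. Below, changes are log2 fold changes ± SE and adjusted p-values come from edgeR's quasi-likelihood test over all genes. Col1a1, the main chain of type I collagen, was at 9910.1, 10368 and 11282 CPM in GRwt/wt vehicle and at 10479.6, 10781 and 11086 CPM after Dex in run 1, and at 7731, 7816 and 9968 CPM in vehicle and 8786, 8891 and 8488 CPM in Dex in run 2. The groups overlapped in both runs, with changes of 0.04 ± 0.12 and 0.04 ± 0.12 (SE), and approximate 95% intervals of -0.20 to 0.27 and -0.20 to 0.27. Col1a2, its partner chain, was at 7447, 7896 and 7934 CPM in vehicle and 7655, 7953 and 8044 CPM in Dex of GRwt/wt in run 1 and at 8615, 8522 and 9071 CPM in vehicle and 8538, 8775 and 8695 CPM in Dex in run 2, again with overlap. It changed by 0.02 ± 0.06 and -0.01 ± 0.06, with intervals of -0.10 to 0.15 and -0.14 to 0.11. Col3a1, which forms the homotrimeric type III molecule of pliable tissues, was at 1001, 1137 and 1036 CPM in vehicle and 900.2, 1071 and 1244 CPM in Dex in run 1 and at 4352, 4333 and 4142 CPM in vehicle and 4129, 4253 and 4167 CPM in Dex in run 2 and changed by 0.02 ± 0.13 and -0.03 ± 0.12, with intervals of -0.23 to 0.27 and -0.28 to 0.21. None of these 3 genes was called in any genotype. In GRL/L, Col1a1 read 11007, 10297 and 9096 CPM in vehicle and 9132, 7177 and 8281 CPM in Dex, a change of -0.31 ± 0.12, adjusted p = 0.0736, which did not pass the test.

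Among the type V chains, which nucleate the fibril, the rarer Col5a3 fell in GRwt/wt of both runs. Col5a3 was at 135, 115 and 139 CPM in GRwt/wt vehicle and 90.3, 97.4 and 107 CPM in Dex of run 1, and at 165, 158 and 185 CPM in vehicle and 116, 119.6 and 121 CPM in Dex in run 2. In both runs every Dex library lay below every vehicle library, with changes of -0.40 ± 0.11, adjusted p = 0.01, and -0.51 ± 0.10, adjusted p = 0.000174. The call in run 1 was lost without Dex replicate 1 or vehicle replicate 3 (adjusted p up to 0.0718). In GRL/L it fell from 159, 156 and 144 to 126, 106 and 109 CPM (-0.43 ± 0.10, adjusted p = 0.0023). GRD+L/D+L read -0.29 ± 0.13 and GRD/D -0.16 ± 0.11, neither called, and in GRko/ko the change was 0.19 ± 0.11, so that the difference of the GRko/ko change from that of GRwt/wt was 0.59 ± 0.15, adjusted p = 0.00886. Col5a1 was at 3939, 4037 and 4272 CPM in vehicle and 3979, 4081 and 4111 CPM in Dex in run 1 and at 2422, 2401 and 2739 CPM in vehicle and 2508, 2782 and 2765 CPM in Dex in run 2, and was not called under Dex in any genotype. Col5a2 was called in GRwt/wt of run 2, at 3548, 3618 and 3524 CPM in vehicle and 3189, 3366 and 3415 CPM in Dex, a change of -0.10 ± 0.04, adjusted p = 0.036, which was lost without Dex replicate 4 or vehicle replicate 4 or 5 (adjusted p up to 0.184).

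Col11a1 had the smallest adjusted p of all collagen genes under Dex. It encodes the alpha 1 chain of type XI collagen, a nucleator of thin fibrils that is best known from cartilage but is also made by stromal fibroblasts and can assemble with type V chains. Its promoter is the first of the sequences shown above. In GRwt/wt of run 1 it was at 149, 183 and 166 CPM in vehicle and at 612, 616 and 608 CPM after Dex. The increase was 1.88 ± 0.07, adjusted p = 3.8e-22. In run 2 the values were 301, 283 and 251 CPM and 634, 752 and 758 CPM (1.36 ± 0.06, adjusted p = 3.78e-19). The libraries of the 2 treatments did not overlap in either run, and the change in run 2 differed from that in run 1 by -0.52 ± 0.09, adjusted p = 0.000122.

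The mutant receptors gave smaller increases of Col11a1 than the GRwt/wt cells of their run, and GRko/ko gave none that passed the test. GRD/D went from 129.9, 122 and 136 to 244, 244 and 254 CPM (0.93 ± 0.07, adjusted p = 6.25e-13) and GRD+L/D+L from 186, 181 and 181 to 313, 326 and 321 CPM (0.81 ± 0.07, adjusted p = 4.03e-11). The differences from the GRwt/wt change of their run were -0.95 ± 0.09, adjusted p = 3.56e-09, and -1.08 ± 0.09, adjusted p = 1.44e-10. GRL/L went from 377, 379 and 361 to 611, 647 and 637 CPM (0.76 ± 0.06, adjusted p = 6.17e-12), and the difference from GRwt/wt of run 2 was -0.60 ± 0.09, adjusted p = 4.24e-05. GRko/ko stood at 345, 382 and 379 CPM in vehicle and 367, 413 and 425 CPM in Dex, overlapping groups with a change of 0.12 ± 0.06 and an interval of -0.0022 to 0.25. Its difference from GRwt/wt was -1.76 ± 0.09, adjusted p = 1.31e-16. All of these Col11a1 calls were kept when any 1 library was left out. Col11a2 and Col2a1, the partner chains of Col11a1 in cartilage, were not called under Dex in any group.

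**Figure D3:**
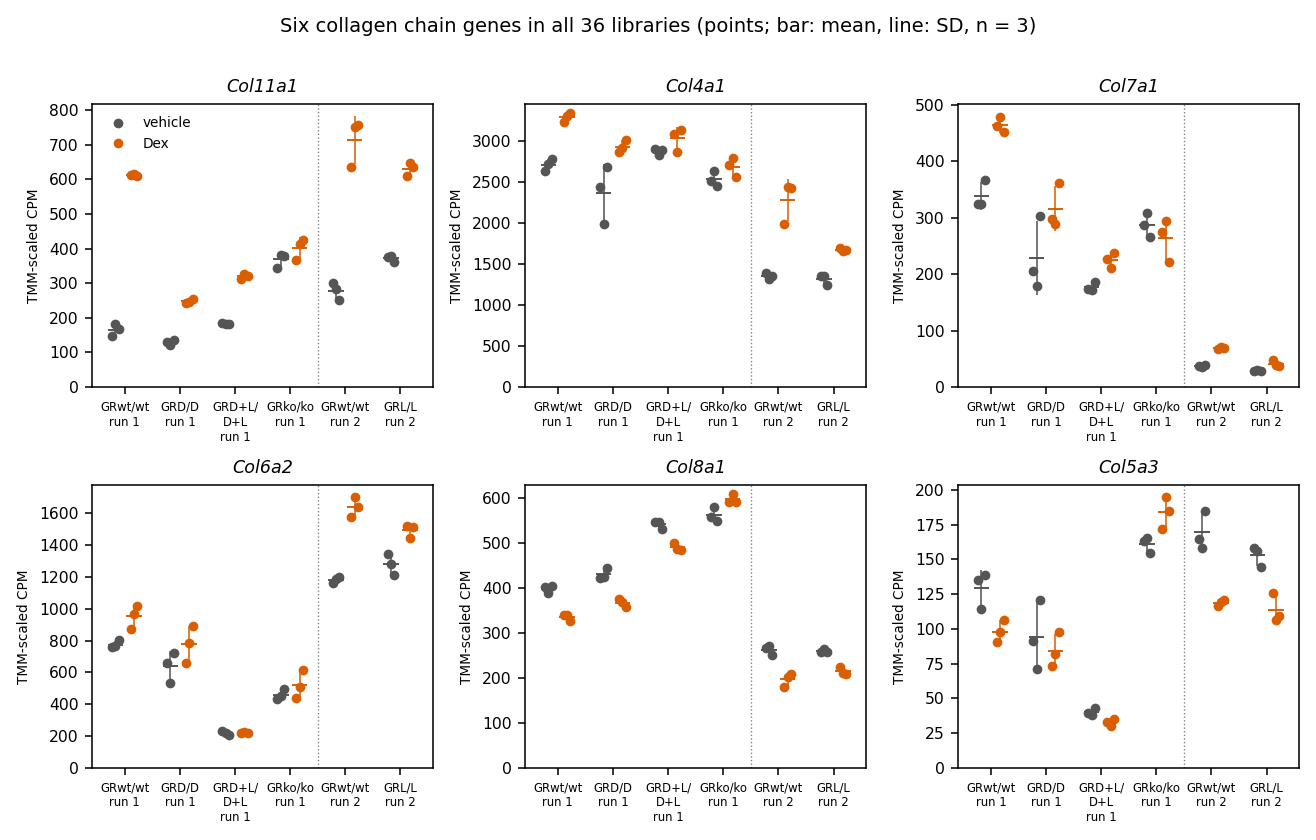
TMM-scaled CPM of 6 collagen chain genes in every library, vehicle in grey and Dex in orange, with bars at the mean and lines of 1 SD for n = 3. Run 1 lies left of the dotted line and run 2 right of it. Col11a1, Col4a1, Col7a1 and Col6a2 were higher with Dex in GRwt/wt of both runs, and Col8a1 and Col5a3 were lower.

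The basement membrane chains Col4a1 and Col4a2 were both raised by Dex in GRwt/wt of both runs, in GRD/D and in GRL/L. They form the common type IV heterotrimer and are transcribed in opposite directions from the shared start printed above. Col4a1 was at 2628, 2712 and 2777 CPM in GRwt/wt vehicle and 3234, 3302 and 3337 CPM in Dex of run 1 (0.28 ± 0.07, adjusted p = 0.00234). Run 2 gave 1388, 1312 and 1348 CPM in vehicle and 1987, 2436 and 2428 CPM in Dex (0.76 ± 0.07, adjusted p = 1.16e-11). Every Dex library exceeded every vehicle library in both runs, and the rise in run 2 was larger by 0.48 ± 0.09, adjusted p = 0.000635. Col4a2 showed 930.1, 878 and 913 CPM in vehicle and 1265, 1500.1 and 1494 CPM in Dex of run 2 (0.65 ± 0.07, adjusted p = 5.79e-10), and 2035, 2091 and 2178 CPM in vehicle and 2406, 2467 and 2481 CPM in Dex in run 1 (0.22 ± 0.07, adjusted p = 0.0192). The run 1 call of Col4a2 was lost without Dex replicate 2 or 3 or vehicle replicate 1 or 2 (adjusted p up to 0.0904). The ratio of Col4a1 to Col4a2 per length was 1.14 ± 0.01 in vehicle and 1.19 ± 0.003 with Dex in run 1, and 1.32 ± 0.009 and 1.42 ± 0.027 in run 2.

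In the mutants, Col4a1 rose by 0.31 ± 0.07 in GRD/D and by 0.35 ± 0.07 in GRL/L, from 1348, 1348 and 1243 to 1699, 1655 and 1665 CPM in the latter. Col4a2 rose by 0.27 ± 0.07 and 0.25 ± 0.07, and those calls were lost without vehicle replicate 2 in GRD/D (adjusted p = 0.106) and without vehicle replicate 3 in GRL/L (adjusted p = 0.0588). The GRL/L rises were smaller than those in GRwt/wt of run 2, with differences of -0.41 ± 0.09, adjusted p = 0.0123, for Col4a1 and -0.40 ± 0.09, adjusted p = 0.0163, for Col4a2. The former call was lost without GRwt/wt Dex replicate 5 (adjusted p up to 0.0509), and the latter without GRL/L vehicle replicate 1 or 2 or GRwt/wt Dex replicate 5 or GRwt/wt vehicle replicate 5 (adjusted p up to 0.0575). For GRD/D the difference from GRwt/wt was 0.02 ± 0.09 for Col4a1, with an interval of -0.16 to 0.21. GRD+L/D+L and GRko/ko had changes of 0.08 ± 0.07 and 0.09 ± 0.07 for Col4a1, with overlapping libraries. Col4a5 was not called under Dex in any group. Col4a6 was lowered in GRwt/wt of run 2 (-0.31 ± 0.11, adjusted p = 0.0279), a call lost without Dex replicate 4 or 5 or vehicle replicate 4 or 6 (adjusted p up to 0.158). Col4a3 and Col4a4, which also lie head to head, 71 bases apart, were near the limit of counting. The call of Col4a3 in GRL/L rests on counts of 1, 1 and 0 in vehicle and 4, 7 and 3 in Dex.

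Of the type VI chains, which build beaded filaments around cells as a trimer of alpha 1, alpha 2 and alpha 3, Col6a1 and Col6a2 rose with Dex and Col6a3 was not called. Col6a1 was at 1033, 1046 and 1103 CPM in vehicle and 1179, 1288 and 1351 CPM in Dex of GRwt/wt in run 1, and 1715, 1651 and 1664 CPM in vehicle and 2052, 2234 and 2208 CPM in Dex in run 2 (0.26 ± 0.07, adjusted p = 0.0128, and 0.37 ± 0.07, adjusted p = 0.000143). Col6a2 read 759, 766 and 802 CPM in vehicle and 875, 968 and 1015 CPM in Dex in run 1 (0.30 ± 0.09, adjusted p = 0.0232) and 1166, 1185 and 1199 CPM in vehicle and 1579.9, 1705 and 1640.2 CPM in Dex in run 2 (0.47 ± 0.09, adjusted p = 7.38e-05). No library of the 2 treatments overlapped for either gene. The run 1 calls were weak, that of Col6a1 being lost without Dex replicate 3 or vehicle replicate 1 (adjusted p up to 0.0864), and that of Col6a2 without Dex replicate 2 or 3 or vehicle replicate 1 or 2 (adjusted p up to 0.12). Col6a3, in contrast, stood at 1446, 1524 and 1649 CPM in vehicle and 1460.2, 1489 and 1544 CPM in Dex in run 1 and 1844, 1627 and 1754 CPM in vehicle and 1321, 1725 and 1788 CPM in Dex in run 2, where the low Dex value is replicate 4. Its changes were -0.04 ± 0.11 and -0.11 ± 0.10, with intervals of -0.25 to 0.17 and -0.32 to 0.09. The ratio of Col6a3 to Col6a1 per length was 0.531 ± 0.017 in vehicle and 0.432 ± 0.019 with Dex in run 1, and 0.380 ± 0.017 and 0.272 ± 0.032 in run 2, while in GRko/ko it was 0.362 ± 0.022 and 0.337 ± 0.033.

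In GRL/L, Col6a1 was raised by 0.20 ± 0.07, adjusted p = 0.0477, a call that leaving out any 1 of the 6 libraries removed, and Col6a2 read 0.22 ± 0.09, adjusted p = 0.0823. In GRD/D, Col6a2 was raised by 0.28 ± 0.09, adjusted p = 0.038, with overlapping libraries, and the call was lost without Dex replicate 2 or 3 or vehicle replicate 2 (adjusted p up to 0.294). In GRD+L/D+L, Col6a2 was at 230.1, 221 and 204 CPM in vehicle and 222, 225 and 218 CPM in Dex, overlapping groups with a change of 0.02 ± 0.09. None of the differences of the Dex change between a mutant and GRwt/wt passed the test for type VI chains. For Col6a2 in GRD+L/D+L that difference was -0.28 ± 0.13, with an interval of -0.54 to -0.02.

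Col7a1, which encodes the anchoring fibril chain of the skin, was raised in the same genotypes as Col4a1. It was at 324, 325 and 368 CPM in vehicle and 463, 479 and 452 CPM in Dex of GRwt/wt in run 1 (0.45 ± 0.11, adjusted p = 0.00343). In run 2 the level was lower throughout, at 37.6, 35.0 and 39.0 CPM in vehicle and 68.0, 70.9 and 69.5 CPM in Dex, and the change was 0.90 ± 0.12, adjusted p = 2.8e-07. GRL/L gave 28.3, 30.7 and 28.9 CPM in vehicle and 47.9, 39.6 and 36.9 CPM in Dex (0.50 ± 0.13, adjusted p = 0.00379), a call lost without Dex replicate 1 (adjusted p up to 0.0554). In GRD/D the change was 0.46 ± 0.11, adjusted p = 0.00455, but the libraries overlapped and the call was lost without Dex replicate 3 or vehicle replicate 2 (adjusted p up to 0.0754). GRD+L/D+L read 0.35 ± 0.11, adjusted p = 0.078. In GRko/ko it read -0.12 ± 0.11, and the difference from GRwt/wt was -0.58 ± 0.16, adjusted p = 0.0147, lost without GRko/ko Dex replicate 3 or GRko/ko vehicle replicate 2 (adjusted p up to 0.0684).

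Col8a1, a short chain of hexagonal nets that vessel walls and mesenchymal cells make, was lowered in all 5 groups with a receptor. In GRwt/wt it was at 403, 388 and 404 CPM in vehicle and 338, 339 and 325 CPM in Dex of run 1 (-0.25 ± 0.04, adjusted p = 3e-05), and at 267, 271 and 250.2 CPM in vehicle and 179.9, 202 and 209 CPM in Dex in run 2 (-0.41 ± 0.04, adjusted p = 6.55e-10). GRD/D went from 422, 424 and 443 to 375, 368 and 357 CPM (-0.23 ± 0.04, adjusted p = 0.00022) and GRL/L from 258, 264 and 256 to 223, 211 and 209 CPM (-0.28 ± 0.04, adjusted p = 5.01e-06). GRD+L/D+L went from 545, 546 and 531 to 499, 487 and 485 CPM (-0.14 ± 0.04, adjusted p = 0.0433), a call that did not survive leaving out any 1 library. In these 5 groups every Dex library lay below every vehicle library. GRko/ko had 557, 579.9 and 548 CPM in vehicle and 590.5, 607 and 590.1 CPM in Dex, a change of 0.09 ± 0.04, and the difference from GRwt/wt was 0.34 ± 0.06, adjusted p = 0.000111. Its partner Col8a2 was lowered in GRwt/wt of run 2 (-0.24 ± 0.09, adjusted p = 0.0449), a call lost without Dex replicate 4 or 6 or vehicle replicate 4 or 5 or 6 (adjusted p up to 0.194). Col10a1, the chain of hypertrophic cartilage, was lowered there too (-0.75 ± 0.19, adjusted p = 0.00188) and in GRL/L (-0.44 ± 0.16, adjusted p = 0.0487), the latter call being lost without Dex replicate 1 or 2 or 3 or vehicle replicate 2 or 3 (adjusted p up to 0.244).

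A further set of less abundant chains was lowered in GRwt/wt of run 2 and not called in GRwt/wt of run 1. Among them only Col27a1 had a called difference between the runs. In run 1 the GRwt/wt counts of Col24a1 were 254, 274 and 264 in vehicle and 235, 255 and 335 in Dex. Those of Col23a1 were 25, 29 and 21 in vehicle and 16, 21 and 23 in Dex, and those of Col17a1 16, 15 and 10 and 11, 7 and 8. Col27a1 and Col24a1 are fibril-forming chains of developing cartilage and bone. Col27a1 was at 35.3, 32.9 and 32.3 CPM in GRwt/wt vehicle and 17.2, 20.9 and 18.9 CPM in Dex of run 2 (-0.82 ± 0.10, adjusted p = 1.43e-08), and GRL/L changed from 35.2, 36.2 and 34.0 to 26.0, 23.2 and 24.8 CPM (-0.51 ± 0.09, adjusted p = 7.77e-05). In run 1 the GRwt/wt libraries overlapped, at 33.7, 30.3 and 36.3 CPM in vehicle and 28.4, 30.0 and 31.3 CPM in Dex (-0.16 ± 0.10), and the change in run 2 differed from it by -0.65 ± 0.14, adjusted p = 0.00186. Col24a1 went from 49.1, 46.9 and 52.5 to 31.6, 33.8 and 33.0 CPM (-0.59 ± 0.11, adjusted p = 4.77e-05) and in GRL/L from 50.1, 48.4 and 44.3 to 36.2, 37.9 and 38.6 CPM (-0.34 ± 0.11, adjusted p = 0.0214), the latter call being lost without Dex replicate 1 or 2 or vehicle replicate 1 or 2 (adjusted p up to 0.0872). Col23a1, a transmembrane chain, fell in GRwt/wt of run 2 from 9.45, 9.01 and 9.92 to 5.58, 5.78 and 6.02 CPM (-0.71 ± 0.14, adjusted p = 0.0001). It was also called as lowered in GRL/L, with counts of 320, 301 and 298 in vehicle and 157, 150 and 231 in Dex. Col17a1, the transmembrane chain of epithelial hemidesmosomes, was at 1.31, 1.57 and 3.12 CPM in vehicle and 0.673, 0.418 and 0.414 CPM in Dex of GRwt/wt in run 2 (-1.98 ± 0.31, adjusted p = 3.67e-06). Its highest value is vehicle replicate 6, the library with epithelial markers of 51.5 CPM, and without it the change was -1.51, adjusted p = 0.000212. Epithelial markers, 8 of 10 of which were under 1 CPM on average, summed to 4.30 to 9.74 CPM in Dex, 3 of the 6 tested were also lowered in that comparison, and beyond leaving out that library their part in the result was not tested. Bone-forming cell markers moved with these chains too, 5 of the 7 tested being lowered by Dex in GRwt/wt of run 2, against 16.7% of all tested genes. Their sums went from 1147 to 1448 CPM to 814 to 976 CPM, with 5 of the 8 markers under 1 CPM on average. In GRL/L 5 of the 7 were lowered as well, from 1093 to 1169 CPM to 929 to 984 CPM. Of 10 macrophage markers 5 were lowered and 2 raised in GRL/L, at 293 to 356 CPM in vehicle and 263 to 350.0 CPM in Dex. The shares of all tested genes there were 10.4% lowered and 8.79% raised. The part of these markers in the Dex changes was not tested.

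The remaining calls under Dex were mostly of FACIT and multiplexin chains. The FACIT chain Col19a1 was raised in GRwt/wt of run 1, at counts of 9, 9 and 10 in vehicle and 19, 21 and 29 in Dex (1.20 ± 0.32, adjusted p = 0.00727), a call lost without Dex replicate 3 (adjusted p up to 0.0633). Its difference in GRko/ko was -1.30 ± 0.42, adjusted p = 0.0449, which was lost without any of 10 of the 12 libraries, with an adjusted p of up to 0.145. Col18a1, the source of endostatin, was raised in GRwt/wt of run 1 (0.29 ± 0.08, adjusted p = 0.00896) and lost its call without Dex replicate 3 (adjusted p up to 0.111). It was raised by 0.28 ± 0.08 in GRD/D, where the libraries overlapped and the call was lost without Dex replicate 2 or 3 or vehicle replicate 2 (adjusted p up to 0.199), and it was not called in run 2. Col28a1 was lowered in GRwt/wt of run 2 (-0.28 ± 0.08, adjusted p = 0.00906). Col12a1, an abundant FACIT chain of tendon and fascia, read 0.23 ± 0.10, 0.18 ± 0.10, 0.28 ± 0.10 and 0.27 ± 0.10 in GRwt/wt of both runs, GRD/D and GRD+L/D+L without a call, and 0.29 ± 0.10, adjusted p = 0.0431, in GRL/L, where the call was lost without Dex replicate 1 or 3 or vehicle replicate 1 or 2 or 3 (adjusted p up to 0.2). No FACIT chain was called in GRwt/wt of run 2, and 2 of the 9 were called in GRL/L, Col12a1 and Col16a1.

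Tests of the difference between a mutant's Dex change and that of GRwt/wt gave few calls among the members. Col11a1 was called with a negative difference for GRD/D, against 1.08% of all tested genes raised, 2.20% lowered and 3.29% called in all, and for GRD+L/D+L, against 1.26% of all tested genes raised, 1.98% lowered and 3.23% called in all, and no other member was called in these. For GRko/ko, 2 had a positive difference, Col5a3 and Col8a1, and 3 a negative one, Col11a1, Col7a1 and Col19a1, against 3.80% of all tested genes raised, 4.68% lowered and 8.48% called in all. For GRL/L, Col11a1, Col4a1 and Col4a2 had a negative difference, against 0.646% of all tested genes raised, 1.20% lowered and 1.85% called in all. Between GRwt/wt of run 2 and of run 1, Col4a1 and Col4a2 had a positive difference and Col11a1, Col27a1 and Col5a2 a negative one, against 3.20% of all tested genes raised, 3.89% lowered and 7.09% called in all. In this last comparison the same genotype was on both sides. The GRD/D, GRD+L/D+L and GRko/ko comparisons share the GRwt/wt libraries of run 1. The call of Col5a2 (-0.17 ± 0.05, adjusted p = 0.0363) was lost without GRwt/wt Dex replicate 2 or 3 or 4 or GRwt/wt vehicle replicate 1 or 2 or 4 or 5 (adjusted p up to 0.0953). The count of 1 for GRD/D became 2 without GRD/D Dex replicate 1 and 5 without GRD/D vehicle replicate 3, the count of 5 for GRko/ko became 3 without GRko/ko Dex replicate 3 or vehicle replicate 2, and the count of 3 for GRL/L became 1 without GRwt/wt Dex replicate 5.

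The study also set a fold limit, a log2 fold change of 1 in size, which few members reached under Dex and more between vehicle libraries. Under Dex 2 members passed both limits in GRwt/wt of run 1 (Col11a1 and Col19a1, 2.01% of all genes), 2 in run 2 (Col11a1 and Col17a1, 4.49%), 1 in GRL/L (Col4a3, 2.56%), and 0 in GRD/D (0.981%), 0 in GRD+L/D+L (0.400%) and 0 in GRko/ko (0.00%). Between vehicle libraries the counts were 2 in GRD/D (2.12%), 12 in GRD+L/D+L (5.57%), 19 in GRko/ko (14.2%), 3 in GRL/L (1.31%) and 20 in GRwt/wt of run 2 against run 1 (22.8%). For the difference of the Dex change they were 0 in GRD/D (0.613%), 1 in GRD+L/D+L (0.600%), 2 in GRko/ko (1.69%), 0 in GRL/L (0.123%) and 0 between the runs (1.03%), where Col11a1 passed in GRD+L/D+L and GRko/ko and Col19a1 in GRko/ko.

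Taken as 1 list, genes of collagen making and reception were more often raised than lowered by Dex where they were called. Single parts of the list went the other way in some groups. These were reception and uptake in GRwt/wt of run 2 and in GRL/L, and folding and export in GRD/D (1 raised and 2 lowered). Of 48 genes of collagen modification, folding, cross-linking and reception, 46 were tested. In GRwt/wt of run 1 Dex raised 15 and lowered 0, against 7.74% of all tested genes raised and 6.20% lowered. In run 2 it raised 19 and lowered 6, against 14.9% of all tested genes raised and 16.7% lowered. The corresponding counts, with the shares of all tested genes raised and lowered in brackets, were 10 and 2 in GRD/D (5.63% and 6.24%) and 8 and 5 in GRL/L (8.79% and 10.4%). They were 5 and 0 in GRD+L/D+L (3.08% and 1.92%) and 0 and 0 in GRko/ko (0.00% and 0.00%). Tmem38b, an endoplasmic reticulum cation channel needed for collagen maturation, was at 11.7, 12.1 and 10.8 CPM in vehicle and 39.6, 33.3 and 33.7 CPM in Dex of run 2 (1.62 ± 0.07, adjusted p = 3.89e-20). Lox, the lysyl oxidase that starts cross-linking, went from 2757, 2739 and 3045 to 4883, 5337 and 5313 CPM (0.86 ± 0.05, adjusted p = 2.46e-17), and Tll1, a protease that removes propeptides, from 37.9, 39.3 and 40.1 to 76.4, 84.9 and 90.3 CPM (1.10 ± 0.08, adjusted p = 2.55e-14). All 3 were also raised in GRL/L, Tmem38b and Lox in GRD+L/D+L, and Lox in GRD/D. By the test of differences, the Dex change of Tmem38b was below that of GRwt/wt in GRD/D, GRD+L/D+L, GRL/L and GRko/ko. That of Lox was below it in GRL/L and GRko/ko. All 3 had a larger Dex change in GRwt/wt of run 2 than in that of run 1. Of the prolyl and lysyl hydroxylases and their partners, 4 of 14 tested were raised in run 1 and 7 of 14 in run 2, with 0 lowered. The shares of all tested genes raised were 7.74% and 14.9%. Of the 12 tested genes of propeptide removal and cross-linking, 7 were raised in run 1, and 6 were raised and 2 lowered in run 2, against the same shares raised and 16.7% of all tested genes lowered in run 2. Of the 10 genes of reception and uptake, 2 were raised and 0 lowered in run 1, and 2 were raised and 3 lowered in run 2. In GRL/L 2 were raised and 3 lowered as well. Among them, Itga11, the collagen-binding integrin of fibroblasts, was at 199, 208 and 215 CPM in vehicle and 118, 151 and 156 CPM in Dex of GRwt/wt in run 2 (-0.55 ± 0.07, adjusted p = 5.36e-08), and in run 1 its change was -0.08 ± 0.07, adjusted p = 0.546. The gene was called as lowered in GRL/L too, but as raised in GRD/D. There its Dex change was called as above that of GRwt/wt of run 1. Itga1, another collagen-binding integrin, was lowered in run 2 (-0.48 ± 0.08, adjusted p = 2.05e-05), as was Ddr2, a collagen-activated kinase (-0.30 ± 0.06, adjusted p = 7.46e-05).

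In vehicle libraries genotypes are compared without added Dex, in a medium that held serum per the methods. There, GRD+L/D+L had 9 members higher and 16 lower than GRwt/wt of run 1, against 13.9% of all tested genes raised, 15.9% lowered and 29.9% called in all. GRko/ko had 19 higher and 11 lower, against 24.4% of all tested genes raised, 21.3% lowered and 45.7% called in all. GRD/D had 1 higher and 11 lower, against 5.66% of all tested genes raised, 3.89% lowered and 9.55% called in all. GRL/L had 6 higher and 2 lower than GRwt/wt of run 2, against 6.88% of all tested genes raised, 4.47% lowered and 11.3% called in all. GRwt/wt vehicle of run 2 had 21 members higher and 14 lower than that of run 1 with the same genotype, against 40.2% of all tested genes raised, 32.2% lowered and 72.4% called in all. This comparison crosses the runs, so it gives no scale for the spread between cultures within a run. In these bulk samples fewer cells of a kind and less RNA per cell cannot be told apart. The medians over the 42 tested members were 0.003 in GRD+L/D+L, 0.28 in GRko/ko, -0.16 in GRD/D and 0.06 in GRL/L. Over the 28 members with a mean of at least 100 counts they were -0.23, -0.09, -0.18 and 0.03, so that the sign for GRko/ko and for GRD+L/D+L depended on the rare chains. The medians over all tested genes lay between -0.0062 and 0.0137.

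**Figure D4:**
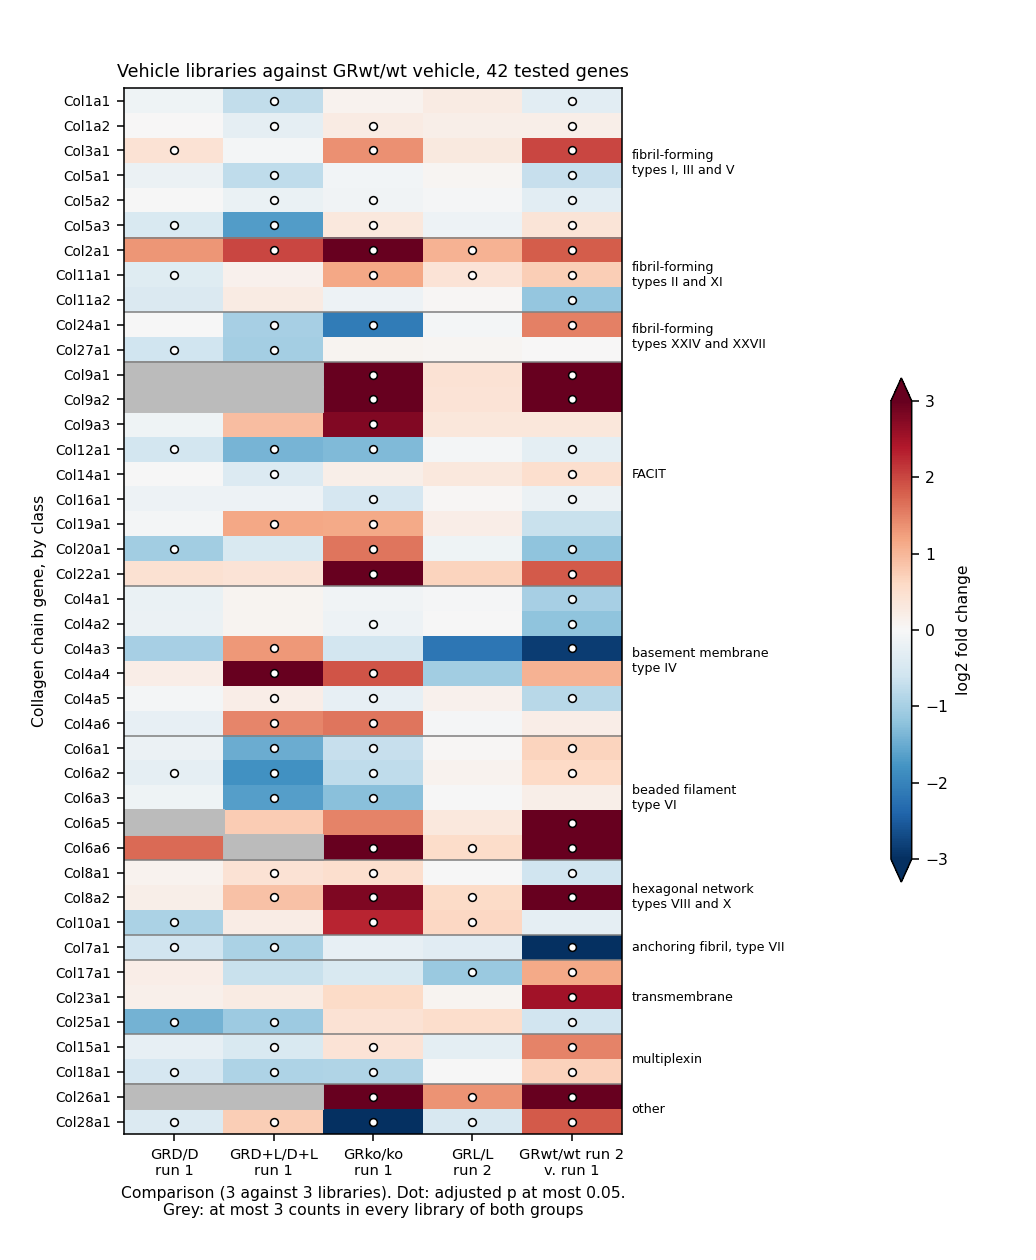
Log2 fold change between vehicle libraries for the 42 tested collagen chain genes (rows, by class). The columns compare each mutant with GRwt/wt of its run, and GRwt/wt of run 2 with that of run 1, each from 3 against 3 libraries. Dots mark an adjusted p of at most 0.05, grey cells at most 3 counts in every library of both groups. Col6a1, Col6a2, Col6a3 and Col12a1 were lower in GRD+L/D+L and GRko/ko, and the most dots (35) are in the comparison of the runs.

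All 3 chains of the type VI trimer were lower in GRD+L/D+L and GRko/ko than in GRwt/wt. Col6a1 was at 1033, 1046 and 1103 CPM in GRwt/wt vehicle of run 1, at 395, 377 and 360.0 CPM in GRD+L/D+L and at 630.1, 651 and 686 CPM in GRko/ko. The groups did not overlap, and the differences were -1.49 ± 0.08, adjusted p = 1.59e-17, and -0.69 ± 0.07, adjusted p = 7.16e-10. Col6a2 was at 230.1, 221 and 204 CPM in GRD+L/D+L and 430.1, 449 and 497 CPM in GRko/ko (-1.83 ± 0.10, adjusted p = 2.15e-17, and -0.76 ± 0.09, adjusted p = 1.01e-08). Col6a3 was at 505, 487 and 482 CPM and 629, 680.4 and 634 CPM (-1.65 ± 0.11, adjusted p = 1.34e-14, and -1.25 ± 0.11, adjusted p = 2.33e-12). In GRD/D and GRL/L, Col6a1 differed by -0.16 ± 0.07 and 0.04 ± 0.07 without a call. Col6a2 was called as lower in GRD/D and not called in GRL/L, and Col6a3 was called in neither. Col12a1 followed the same order, at 3942, 3985 and 4566 CPM in GRwt/wt, 1559, 1582 and 1609.6 CPM in GRD+L/D+L (-1.40 ± 0.10, adjusted p = 4.42e-13) and 1619, 1802 and 1583 CPM in GRko/ko (-1.32 ± 0.10, adjusted p = 2.83e-13), and it was lower in GRD/D as well (-0.56 ± 0.10, adjusted p = 0.000209). Fibroblast markers summed to 25598 to 26346 CPM in GRD+L/D+L and 24059.9 to 27282 CPM in GRko/ko, which overlaps the 24651 to 27173 CPM of GRwt/wt, but single markers moved with the collagens, 5 of 10 being lower and 0 higher in GRD+L/D+L, and 5 lower and 3 higher in GRko/ko. Macrophage markers, all 10 of which were detected, summed to 1485 to 1606 CPM in GRko/ko, 14.9 to 17.9 CPM in GRD+L/D+L and 83.0 to 147 CPM in GRwt/wt, and skeletal muscle markers, 6 of 8 of which were under 1 CPM on average, to 75.5 to 77.7, 127 to 144 and 26.5 to 32.8 CPM in that order. Their part in the collagen differences was not tested.

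The main fibril chains of types I and V were lower in GRD+L/D+L, while in GRko/ko the calls among them went in both directions. In GRD+L/D+L all chains of types I and V were lower, Col1a1 at 6410.1, 6110.0 and 6326 CPM against 9910.1, 10368 and 11282 CPM (-0.74 ± 0.12, adjusted p = 8.34e-06), Col5a1 at 2435, 2429 and 2407 against 3939, 4037 and 4272 CPM (-0.75 ± 0.08, adjusted p = 5.14e-09), and Col5a3 at 39.4, 38.2 and 43.4 against 135, 115 and 139 CPM (-1.68 ± 0.12, adjusted p = 9.13e-14). Col3a1 did not differ there by the test (-0.07 ± 0.13). In GRko/ko, Col3a1 was higher, at 2573, 2505 and 3102 CPM against 1001, 1137 and 1036 CPM (1.37 ± 0.13, adjusted p = 2.02e-11), as was Col11a1 at 345, 382 and 379 against 149, 183 and 166 CPM (1.15 ± 0.07, adjusted p = 4.05e-17), while Col1a1 was not called (0.12 ± 0.12). Col1a2 was higher there, at 9052, 9319.9 and 9268 CPM against 7447, 7896 and 7934 CPM (0.25 ± 0.06, adjusted p = 0.00167), and Col5a2 was lower, at 4100.5, 4115 and 4114 CPM against 4437, 4438 and 4459.6 CPM (-0.11 ± 0.04, adjusted p = 0.0122). Both calls held with any 1 library left out. Col5a3 was higher in GRko/ko as well (0.32 ± 0.11, adjusted p = 0.0149), a call lost without GRwt/wt vehicle replicate 2 (adjusted p up to 0.109), and Col5a1 was not called (-0.09 ± 0.08). The ratio of Col1a1 to Col1a2 per length was 1.84 ± 0.054 in GRD+L/D+L, 2.34 ± 0.013 in GRko/ko and 2.57 ± 0.111 in GRwt/wt. In GRD/D, Col3a1 was higher by 0.44 ± 0.13, adjusted p = 0.0188, a call that was lost without GRD/D vehicle replicate 1 or 3 or GRwt/wt vehicle replicate 1 or 3 (adjusted p up to 0.088). Col11a1 was lower in GRD/D (-0.36 ± 0.07, adjusted p = 0.00031) and higher in GRL/L (0.42 ± 0.06, adjusted p = 1.16e-05), each against the GRwt/wt of its run, and both calls held with any 1 library left out.

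Chains that mark cartilage and its growth plate were high in GRko/ko. Col2a1, the main fibril chain of cartilage, was at 214, 152 and 471 CPM in vehicle and 157, 189.8 and 147 CPM in Dex of GRko/ko, against 2.47, 3.36 and 2.66 CPM in GRwt/wt vehicle (6.62 ± 0.39, adjusted p = 6.53e-17). Without vehicle replicate 3 the difference was 6.02, adjusted p = 2.23e-18. Col10a1, the chain of hypertrophic cartilage, was at 37.9, 65.9 and 62.5 CPM against 12.5, 10.2 and 11.6 CPM (2.28 ± 0.16, adjusted p = 8.69e-15). GRD+L/D+L shared the call of Col2a1 but not that of Col10a1. Its counts of Col2a1 were 162, 197 and 157 in vehicle against 38, 49 and 41 in GRwt/wt. Of the 7 tested cartilage markers, 2 were higher and 1 lower in GRD+L/D+L. The calls of the type IX chains, which coat cartilage fibrils, depended on 1 library. Col9a1 had counts of 11, 5 and 463 in GRko/ko vehicle and 3, 0 and 1 in GRwt/wt, Col9a2 had 5, 8 and 241 in GRko/ko and 0, 3 and 1 in GRwt/wt, and Col9a3 had 29, 24 and 262 in GRko/ko and 14, 11 and 17 in GRwt/wt. Without GRko/ko vehicle replicate 3 none of the 3 was called, with adjusted p of 0.0786, 0.0613 and 0.138. Col11a2 in that library was at 22.1 CPM against 4.82 and 4.76 CPM in the other two. The cartilage markers of that library summed to 73.3 CPM, those of the other GRko/ko vehicle libraries to 34.5 and 36.8 CPM and those of GRwt/wt vehicle to 22.1 to 24.4 CPM, and 3 of the 10 markers were under 1 CPM on average. Col8a2, a chain of the corneal membrane, was also higher in GRko/ko at 25.5, 23.0 and 30.7 CPM against 3.24, 3.90 and 4.09 CPM (2.81 ± 0.17, adjusted p = 1.72e-16). It was called higher in GRD+L/D+L as well, with counts of 94, 109 and 113 against 50, 57 and 63. Col28a1, a chain of nerve sheaths, was lower in GRko/ko, at 0.706, 1.02 and 0.316 CPM against 7.33, 8.08 and 9.21 CPM (-3.55 ± 0.21, adjusted p = 1.26e-16), where glia and Schwann cell markers summed to 12.9 to 17.7 CPM against 48.2 to 49.3 CPM. In GRD+L/D+L it was called higher, with counts of 232, 212 and 177 against 113, 118 and 142, while these markers summed to 30.3 to 32.9 CPM. It was called lower in GRD/D, with marker sums of 34.2 to 41.0 CPM. In GRL/L it was called lower too, with sums of 60.4 to 73.3 CPM against 54.5 to 59.5 CPM in GRwt/wt of run 2. The part of these markers was not tested.

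**Figure D5:**
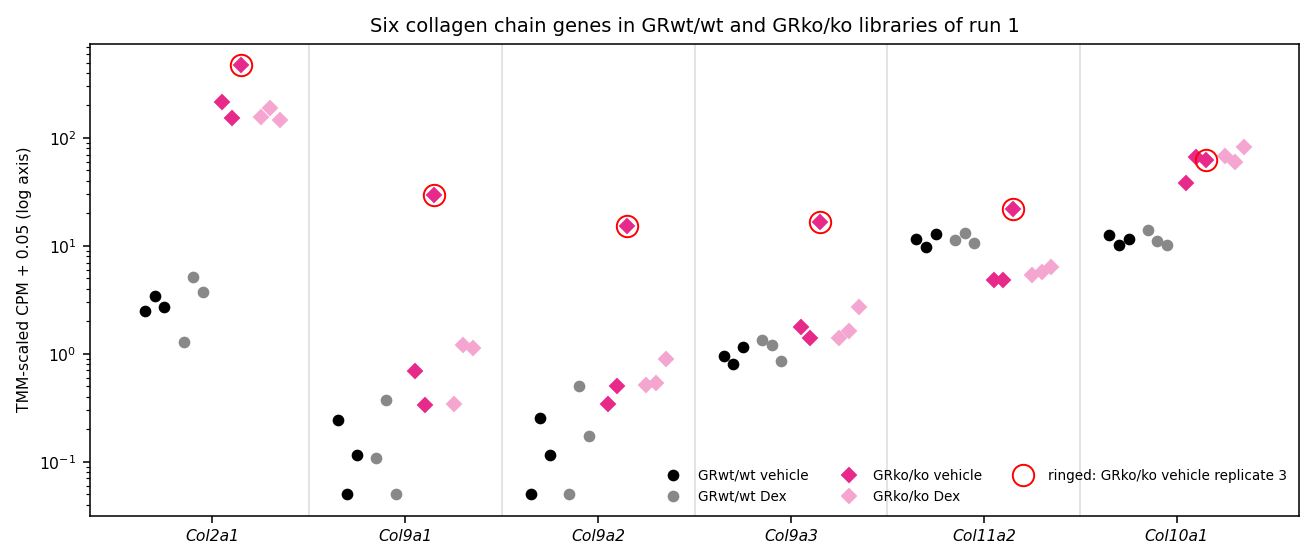
TMM-scaled CPM plus 0.05, on a log axis, of 6 collagen chain genes in the GRwt/wt and GRko/ko libraries of run 1, with 1 point per library. Rings mark GRko/ko vehicle replicate 3, which lies above every other library for Col2a1, Col9a1, Col9a2, Col9a3 and Col11a2. Col2a1 and Col10a1 are higher in all 6 GRko/ko libraries than in any GRwt/wt library.

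In GRD+L/D+L the network chains of rarer basement membranes were higher, Col4a6 at 15.1, 12.9 and 15.0 CPM against 5.32, 4.59 and 5.51 CPM (1.48 ± 0.11, adjusted p = 7.53e-13) and Col4a4 with counts of 21, 33 and 29 against 2, 3 and 5. Col4a6 was also higher in GRko/ko (1.61 ± 0.11, adjusted p = 6.39e-15). Col4a1 and Col4a2 in vehicle differed from GRwt/wt by 0.09 ± 0.07 and 0.07 ± 0.07 in GRD+L/D+L and by -0.10 ± 0.07 and -0.16 ± 0.07, adjusted p = 0.0496, in GRko/ko, the only call among them, which was lost without GRko/ko vehicle replicate 1 or 3 or GRwt/wt vehicle replicate 1 or 2 or 3 (adjusted p up to 0.143). In GRD/D the smallest adjusted p were those of Col18a1, at 215, 175 and 240.2 CPM against 291, 295 and 310.5 CPM (-0.51 ± 0.08, adjusted p = 1.55e-05), Col27a1, at 21.6, 17.7 and 27.1 against 33.7, 30.3 and 36.3 CPM (-0.59 ± 0.11, adjusted p = 0.00013), and Col12a1. In each of these the lowest value is GRD/D vehicle replicate 2, and without that library the differences were -0.39, adjusted p = 0.000445, for Col18a1, -0.45, adjusted p = 0.00437, for Col27a1, and -0.47, adjusted p = 0.00473, for Col12a1. All 10 macrophage markers were higher in GRD/D than in GRwt/wt, with sums of 283 to 295 CPM against 83.0 to 147 CPM, the fibroblast markers had 0 calls, and their part in these differences was not tested. In GRL/L the smallest adjusted p were those of Col11a1, of Col8a2, at 175, 156 and 144 CPM against 109, 104 and 107 CPM (0.57 ± 0.09, adjusted p = 2.13e-05), and of Col26a1, at 7.47, 6.52 and 5.31 against 2.89, 2.52 and 2.12 CPM (1.35 ± 0.22, adjusted p = 3.65e-05). Col2a1 and Col10a1 were also higher in GRL/L, by 1.04 ± 0.32, adjusted p = 0.0277, and 0.62 ± 0.16, adjusted p = 0.00715. The former was lost without GRL/L vehicle replicate 2 or 3 or GRwt/wt vehicle replicate 4 or 5 (adjusted p up to 0.116), the latter without GRwt/wt vehicle replicate 6 (adjusted p up to 0.0611). The cartilage markers summed to 109 to 116 CPM in GRL/L and 69.8 to 79.0 CPM in GRwt/wt of run 2, with 4 of 7 higher. All 10 macrophage markers were higher too, with sums of 293 to 356 CPM against 140.02 to 158 CPM. Of the epithelial markers 3 of 6 were lower, at sums of 2.78 to 3.40 CPM against 5.43 to 51.5 CPM, and of the skeletal muscle markers 3 of 5, at 17.3 to 19.5 CPM against 25.8 to 28.9 CPM. The part of these markers was not tested. Without GRwt/wt vehicle replicate 6 the 8 calls of GRL/L became 5.

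The GRwt/wt cells of the 2 runs differed strongly in some chains. Col8a2 was at 3.24, 3.90 and 4.09 CPM in vehicle of run 1 and 109, 104 and 107 CPM in that of run 2 (4.83 ± 0.15, adjusted p = 1.1e-25), and Col7a1 was at 324, 325 and 368 CPM in run 1 and 37.6, 35.0 and 39.0 CPM in run 2 (-3.19 ± 0.13, adjusted p = 2.07e-22). Col3a1 was higher in run 2 (2.02 ± 0.13, adjusted p = 3.76e-16), and Col4a2 was lower there (-1.21 ± 0.07, adjusted p = 5.66e-18). Col26a1, Col6a6 and Col9a1 had at most 3 counts in any GRwt/wt vehicle library of run 1. In run 2 the counts were 82, 69 and 57 for Col26a1, 177, 113 and 95 for Col6a6 and 37, 56 and 38 for Col9a1. Marker lists differed as well, all 7 tested cartilage markers being higher in run 2, at 69.8 to 79.0 CPM against 22.1 to 24.4 CPM, and of 10 fibroblast markers 5 higher and 4 lower, at 13068 to 14444 CPM against 24651 to 27173 CPM. Run, embryos and culture cannot be told apart in this contrast, which is why each mutant was compared with the GRwt/wt libraries of its own run.

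The members not yet described were called in few of the Dex comparisons. Col6a4 had a mean of 3.42 counts per library and Col13a1 of 1.08. Col14a1 and Col15a1, a FACIT chain and a multiplexin, were not called under Dex in any genotype. In vehicle libraries Col15a1 was at 25.2, 23.0 and 24.2 CPM in GRwt/wt of run 1 and at 68.6, 62.8 and 70.6 CPM in run 2, without overlap (1.48 ± 0.13, adjusted p = 1.14e-12). It was higher in GRko/ko (0.41 ± 0.14, adjusted p = 0.0149), a call lost without GRwt/wt vehicle replicate 2 (adjusted p up to 0.0546), and lower in GRD+L/D+L (-0.46 ± 0.15, adjusted p = 0.0185), a call lost without GRD+L/D+L vehicle replicate 2 or GRwt/wt vehicle replicate 1 (adjusted p up to 0.0664). Col14a1 was at 25.6, 26.6 and 26.0 CPM in run 1 and 41.2, 35.6 and 34.9 CPM in run 2 (0.51 ± 0.13, adjusted p = 0.000463), and it was lower in GRD+L/D+L (-0.41 ± 0.14, adjusted p = 0.0276), a call lost without GRD+L/D+L vehicle replicate 2 or 3 or GRwt/wt vehicle replicate 2 or 3 (adjusted p up to 0.0889). Col16a1, a FACIT chain, was lowered by Dex in GRL/L (-0.20 ± 0.06, adjusted p = 0.0194), a call lost without Dex replicate 2 or vehicle replicate 1 or 2 (adjusted p up to 0.128), and was lower in GRko/ko vehicle (-0.52 ± 0.06, adjusted p = 1.35e-08). Col22a1, a FACIT chain of tissue junctions, had counts of 28, 44 and 51 in GRko/ko vehicle and 4, 0 and 5 in GRwt/wt (3.58 ± 0.46, adjusted p = 3.69e-08). Col20a1 shares 79 exon bases on its own strand with a gene of 12791 counts in all against its 1356, so that its values are uncertain. Col4a3 shares 563 exon bases with a gene on the opposite strand, of 527 counts in all against its 377. Col9a3 shares 234 with another such gene, of 4656 counts against its 1210. As the strand setting of the counting is not given, the values of these 2 chains are uncertain too. Col25a1, a transmembrane chain, was lower in GRD/D vehicle (-1.42 ± 0.29, adjusted p = 0.000763). Col6a5 had at most 78 counts in any library and was called in GRwt/wt of run 2 against run 1 alone.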

How the data were processed

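Counts per gene in 36 RNA-seq libraries of mouse embryonic fibroblasts were used as deposited. Per the labels and the study's methods, the authors aligned reads to mm10 with HISAT2 2.1.0 and counted uniquely mapped reads with featureCounts 2.0.0. The annotation and the strand setting are not given in the sources used here. Exon lengths, overlaps and promoters were taken from the reference annotation and from RefSeq (GRCm38.p6). The 36 libraries had 15280166 to 28662608 counts.

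Groups of 3 came from the labels. edgeR 4.0.16 in R 4.3.3 fitted a quasi-likelihood model of the 12 group means with TMM scaling to the 15489 genes kept by filterByExpr, which held 99.9% of the counts, and p-values were adjusted over all of them (Benjamini-Hochberg) and called at 0.05. SEs were derived from the F statistic and, like the 95% intervals, are approximate. CPM are TMM-scaled. The model was tested on simulated data with known changes. The members, classes, pathway and marker lists were chosen with earlier results of these data known. Values in each library of the groups compared are given for the chains of types I, III, IV, V and VI and for the called members with the smallest adjusted p in each comparison (5 raised and 5 lowered by Dex in GRwt/wt, 3 per vehicle comparison, 2 per difference), and for a few others, chosen after their values were seen.

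The alternatives were DESeq2 1.42.0, its size factors, other count filters, fits of fewer libraries, an additive run term, a replicate block, a fold limit and leaving out each library. Replicate numbers were shared by groups but gave no sign of pairing: deviations of 18 vehicle and Dex pairs correlated at -0.0787 to 0.116, with 1 over 0.1. This cannot exclude that a vehicle and a Dex library came from the same culture. The reported tests treat all libraries as independent.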

Additional observations from a re-analysis of the deposited data

Results flagged for a closer look

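The results listed here are those where the test of a difference between 2 Dex changes passed at an adjusted p of 0.05 (edgeR, 3 libraries per group), given on the log2 scale with SE. Col11a1 stood out in every such test. Its Dex change was below that of GRwt/wt by a difference of -0.95 ± 0.09 (adjusted p = 3.56e-09) in GRD/D, -1.08 ± 0.09 (adjusted p = 1.44e-10) in GRD+L/D+L, -1.76 ± 0.09 (adjusted p = 1.31e-16) in GRko/ko and -0.60 ± 0.09 (adjusted p = 4.24e-05) in GRL/L. The same genotype, GRwt/wt, gave a difference of -0.52 ± 0.09 (adjusted p = 0.000122) between run 2 and run 1, which is of the size of the GRL/L difference. Vehicle levels of Col11a1 in run 1 were 149 to 183 CPM in GRwt/wt, 122 to 136 CPM in GRD/D and 345 to 382 CPM in GRko/ko, and those of GRD+L/D+L are given above. Their part in the size of the Dex change was not tested.

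In GRko/ko the differences from GRwt/wt were 0.34 ± 0.06 (adjusted p = 0.000111) for Col8a1, 0.59 ± 0.15 (adjusted p = 0.00886) for Col5a3, -0.58 ± 0.16 (adjusted p = 0.0147) for Col7a1 and -1.30 ± 0.42 (adjusted p = 0.0449) for Col19a1. The latter pair were lost when single libraries were left out. In GRL/L they were -0.41 ± 0.09 (adjusted p = 0.0123) for Col4a1 and -0.40 ± 0.09 (adjusted p = 0.0163) for Col4a2. Between GRwt/wt of run 2 and of run 1 they were 0.48 ± 0.09 (adjusted p = 0.000635) for Col4a1, 0.42 ± 0.09 (adjusted p = 0.00248) for Col4a2, -0.65 ± 0.14 (adjusted p = 0.00186) for Col27a1 and -0.17 ± 0.05 (adjusted p = 0.0363) for Col5a2. GRD/D and GRD+L/D+L had no such difference in Col4a1 that passed the test, with -0.16 to 0.21 and -0.39 to -0.02 as approximate 95% intervals.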

How the results depend on the processing

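There were 175 calls on single collagen genes, 50 under Dex, 110 between vehicle libraries and 15 on differences. Of these, 122 passed in every alternative fit in which the gene was tested and with any 1 library left out. The fold limit is not part of that number, as it was applied to the counts of members alone. Another 50 were lost when some library was left out, 23 under another alternative fit, with overlap between the 2 sets, and none changed direction. The numbers of members called under DESeq2, with DESeq2 size factors, without the GRko/ko libraries or within 1 run stayed within 1.5 times those reported. The cause of the shifts below was not tested.

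For the Dex change, counts other than those reported were as follows. The additive model gave 16 members in GRwt/wt of run 1 and 1 in GRD+L/D+L. Without a filter on low counts there were 16 in GRD/D, 22 in GRL/L, 7 in GRD+L/D+L and 10 in GRko/ko, where the lowest adjusted p of all genes was 4.12e-53 against 0.356 with the filter. The fold limit left 2 in GRwt/wt of either run, 1 in GRL/L and 0 in GRD/D and GRD+L/D+L. Between vehicle libraries, no filter gave 19 in GRD/D and 14 in GRL/L, at least 10 counts in every library gave 19 in GRko/ko and 4 in GRL/L, the additive model gave 13 in GRL/L, and the fold limit left 2 in GRD/D, 12 in GRD+L/D+L, 19 in GRko/ko, 3 in GRL/L and 20 between the runs. For differences of the Dex change, no filter gave 4 in GRD/D, 3 in GRD+L/D+L, 12 in GRko/ko and 9 in GRL/L, the additive model 3, 7, 13 and 1 in that order, and the fold limit 0 in GRD/D, 2 in GRko/ko, and 0 in GRL/L and between the runs.

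With the replicate block, 12 members were called under Dex in GRD/D and 2 in its difference from GRwt/wt. Whether the numbers pair the samples is not settled, as 7 of 18 pairs correlated best with their own number. The block moved no other count of members by over 1.5 times.

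With 1 library left out, the counts under Dex were 5 to 9 in GRwt/wt of run 1, 14 to 16 in run 2, 4 to 16 in GRD/D, 9 to 14 in GRL/L, 1 to 2 in GRD+L/D+L and 0 to 3 in GRko/ko. Between vehicle libraries they were 8 to 17 in GRD/D, 23 to 25 in GRD+L/D+L, 27 to 31 in GRko/ko, 5 to 9 in GRL/L and 31 to 34 between the runs, and for differences 1 to 5, 1 to 1, 3 to 5, 1 to 3 and 4 to 6 in the same order. Depth limits the rarest members, such as Col4a3 with 0 to 37 counts.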
